A study of Canis lupus familiaris with 6 samples.

Results

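The smooth muscle contractile genes are 10 genes that together build and anchor the contractile filaments of smooth muscle cells: ACTG2, TAGLN, CNN1, MYH11, TPM1, TPM2, MYL9, CALD1, TGFB1I1 and CSRP1. Each of 6 primary lines from dogs with osteosarcoma, a bone cancer, was read on 1 Affymetrix array. A gene was taken from every probe set annotated with its symbol alone, and its brightest probe set stood for it. All 10 genes were found, on 29 probe sets, out of 15115 genes with such a probe set. UWKOS1, UWKOS3 and UWKOS7 formed tumours in mice (tumorigenic, n = 3) and UWKOS2, UWKOS6 and UWKOS8 did not (non-tumorigenic, n = 3). All 6 were kept in the same medium with 10% cosmic calf serum and were harvested at 70 to 80% confluency, and RNA was taken from the cultures, not from transplants. A line stands for 1 primary culture, no normal cell or reference line was arrayed, and the labels give no breed, age or passage.

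In smooth muscle, actin filaments slide along myosin, and the regulatory light chain of myosin sets how strongly they pull. Tropomyosins lie along the actin filament, and calponin, caldesmon and transgelin bind it and limit or stabilise its use. Most of these genes carry binding sites for serum response factor and are switched on together with its myocardin-family partners, which respond to TGF-beta and to the state of the actin cytoskeleton. Fibroblasts and tumour stroma can switch on the same genes when they become contractile myofibroblasts, and cultured bone-forming and mesenchymal cells express part of the set.

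Values are log2 signals, so a difference of 1 is a doubling of signal, and differences are tumorigenic minus non-tumorigenic throughout. The fit was limma over 21462 probe sets whose mean over the lines reached 6.07, the median of all probe sets that are not controls, and a difference passed at an adjusted p under 0.05 (Benjamini-Hochberg over all of them). Of the 10 genes, 9 reached that mean and MYH11 did not. No line was arrayed again, so the p-values rest on the spread between lines, and precision is limited by having 3 arrays a group. In a culture, fewer contractile cells and less RNA per cell cannot be told apart.

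All 10 genes had a lower mean in the tumorigenic lines, from -3.19 for ACTG2 to -0.10 for MYH11, with a median of -1.71 against 0.03 over the 9145 tested genes. ACTG2, TPM2 and TGFB1I1 fell, 0 genes rose, and the other 6 tested genes did not pass. Over all tested genes, 4.52% passed in the lower direction by the same rule. In 7 of the 9 tested genes every tumorigenic line lay below every non-tumorigenic line, a pattern that 16.6% of all tested genes showed. The exceptions were CNN1 and MYL9.

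**Figure D1:**
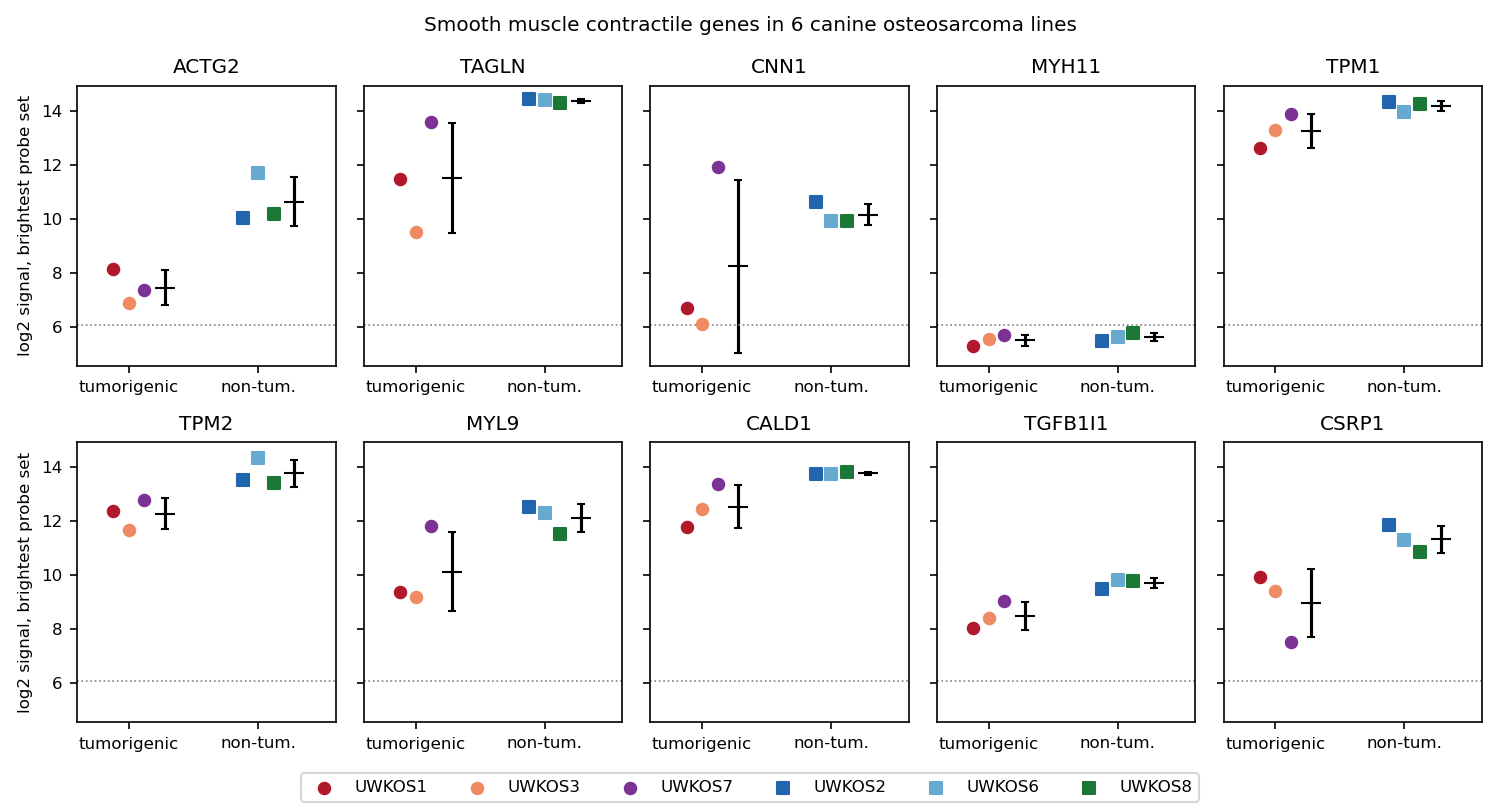
Log2 signal of the brightest probe set of each gene in the 3 tumorigenic lines (circles) and the 3 non-tumorigenic lines (squares), with mean and SD beside each group and the filter value of 6.07 as a dotted line. The non-tumorigenic lines sit close together for TAGLN, CALD1 and TPM1, the tumorigenic lines are spread widely for CNN1 and TAGLN, and MYH11 lies under the filter in every line.

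ACTG2 encodes the gamma actin of visceral smooth muscle, the filament itself. Its log2 signal was 8.13 in UWKOS1, 6.88 in UWKOS3 and 7.35 in UWKOS7, against 10.03 in UWKOS2, 11.70 in UWKOS6 and 10.20 in UWKOS8. All 3 tumorigenic lines were low, and the gap between the groups was wider than the spread within either. The means were 7.45 ± 0.63 (SD, n = 3) and 10.64 ± 0.92 (SD, n = 3), a 9.12-fold lower signal (difference -3.19, SE 0.52, limma adjusted p = 0.0222). A second probe set differed by -3.90 and passed too (limma adjusted p = 0.0245), and the remaining one, under the filter, lay between 5.05 and 5.22 in every line. Both tested probe sets carry the suffix that Affymetrix gives to probes shared between transcripts, so signal from another actin may be included, which was not tested.

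TAGLN encodes transgelin, an actin-binding protein that is an early mark of smooth muscle differentiation. Its log2 signal was 11.48 in UWKOS1, 9.51 in UWKOS3 and 13.59 in UWKOS7, against 14.45, 14.39 and 14.30 in UWKOS2, UWKOS6 and UWKOS8. The non-tumorigenic lines were nearly equal, while UWKOS7 came within 0.79 of their mean and UWKOS3 lay 4.87 below it. The means were 11.53 ± 2.04 (SD, n = 3) and 14.38 ± 0.07 (SD, n = 3), a difference of -2.86 with a 95% interval of -5.10 to -0.61 that did not pass (limma adjusted p = 0.0923). The other TAGLN probe sets gave -3.35 and -3.15 with the same order of lines and did not pass either. The non-tumorigenic values lie near the top of the scale.

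CNN1 encodes calponin, which binds actin and slows the myosin motor. Its log2 signal was 6.68 in UWKOS1, 6.10 in UWKOS3 and 11.94 in UWKOS7, against 10.62 in UWKOS2, 9.93 in UWKOS6 and 9.94 in UWKOS8. The groups overlapped completely, because UWKOS7 was the highest of all 6 lines while UWKOS1 and UWKOS3 were the lowest. The difference of -1.92 had an interval of -5.46 to 1.62 and missed the threshold (limma adjusted p = 0.414). The other probe set gave the same picture, with 10.68 in UWKOS7, 6.03 and 5.90 in UWKOS1 and UWKOS3, and 8.04 to 9.30 in the non-tumorigenic lines.

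CALD1 encodes caldesmon, which bridges actin and myosin and restrains their interaction. Its brightest probe set read 11.80 in UWKOS1, 12.45 in UWKOS3 and 13.37 in UWKOS7, against 13.74, 13.74 and 13.84 in UWKOS2, UWKOS6 and UWKOS8. The groups did not overlap, and the difference of -1.24 did not pass (SE 0.38, limma adjusted p = 0.0813). On its other probe sets CALD1 differed by -1.81, -1.87 and -1.82, and the last 2 of these passed (limma adjusted p = 0.0429 and 0.0384). UWKOS1 was the lowest and UWKOS7 the highest tumorigenic line on all 4 CALD1 probe sets.

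The tropomyosins TPM1 and TPM2 stabilise the actin filament and gate its contact with myosin. TPM2 read 12.38 in UWKOS1, 11.66 in UWKOS3 and 12.78 in UWKOS7, against 13.54 in UWKOS2, 14.36 in UWKOS6 and 13.43 in UWKOS8. The groups did not overlap, and the 2.83-fold lower mean signal passed narrowly (SE 0.37 on the log2 scale, limma adjusted p = 0.0491). Its other tested probe sets gave -1.24 and -1.41 and did not pass (limma adjusted p = 0.0825 and 0.0503). TPM1 read 12.64, 13.29 and 13.88 in UWKOS1, UWKOS3 and UWKOS7, against 14.32, 13.98 and 14.24 in UWKOS2, UWKOS6 and UWKOS8. Its difference of -0.91 did not pass (limma adjusted p = 0.111), although UWKOS7 still lay just under the lowest non-tumorigenic line. The non-tumorigenic values of this probe set lie near the top of the scale. The TPM1 probe sets disagreed in their calls: 1 dimmer probe set fell by 1.45 (SE 0.22, limma adjusted p = 0.0199), and another differed by -1.21 with overlapping groups. TPM1 makes many splice forms, and which form each probe set reads was not analysed here.

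**Figure D2:**
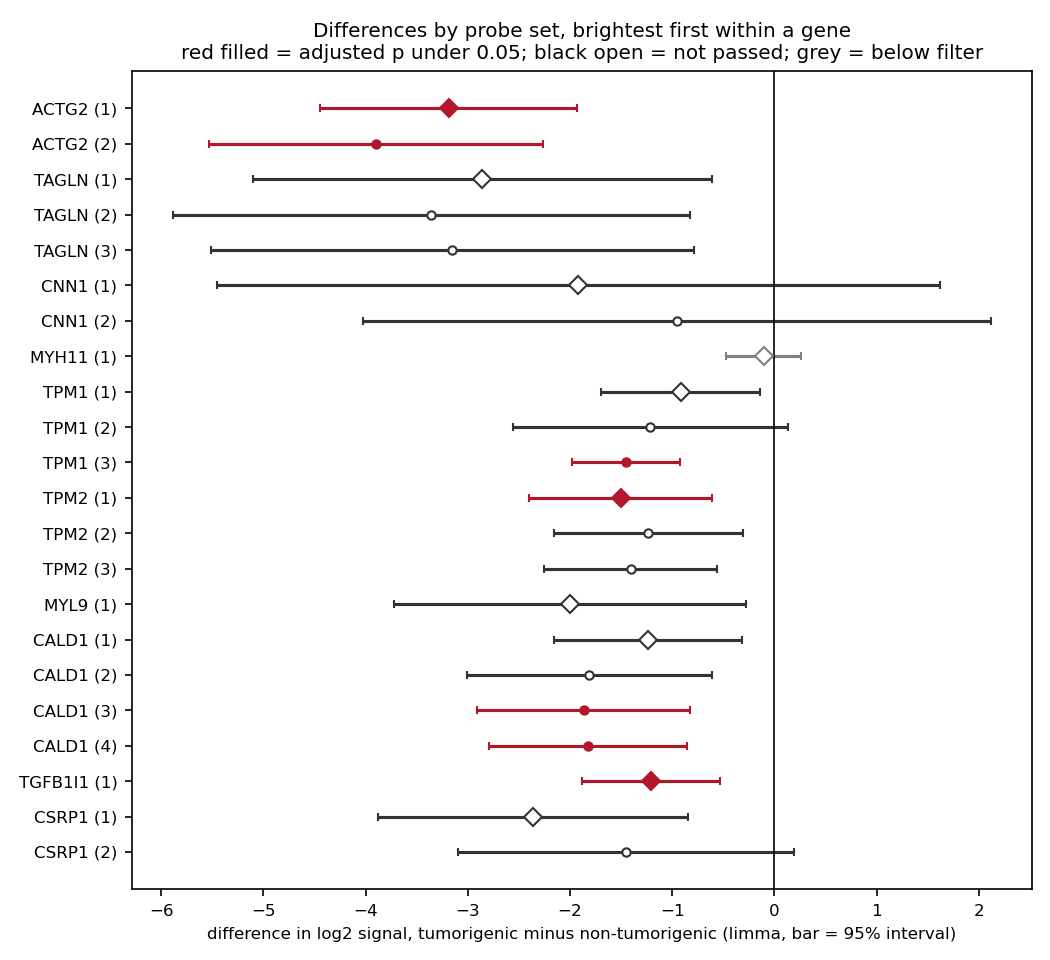
Difference in log2 signal for every tested probe set of the 10 genes, and the brightest of MYH11, with its 95% interval from limma. Diamonds mark the brightest probe set of each gene. Every point lies left of 0, from -3.90 for the second probe set of ACTG2 to -0.10 for MYH11, and 7 of the 21 tested probe sets, in red, passed, where 4.74% of all tested probe sets passed as lower.

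Of the myosin genes, the light chain passed the filter on dim probe sets and the heavy chain did not. MYL9, the regulatory light chain whose phosphorylation starts contraction, read 9.37 in UWKOS1, 9.19 in UWKOS3 and 11.81 in UWKOS7, against 12.53 in UWKOS2, 12.30 in UWKOS6 and 11.53 in UWKOS8. UWKOS7 lay within the non-tumorigenic range, and the difference of -2.00 did not pass (95% interval -3.72 to -0.28, limma adjusted p = 0.113). MYL9 has a single probe set with its symbol alone. MYH11, the smooth muscle myosin heavy chain and a mark of fully differentiated smooth muscle, lay between 5.29 and 5.75 in the 6 lines on its brightest probe set. All 4 of its probe sets were under the filter, its difference was -0.10 with an interval of -0.47 to 0.26, and it is not known to lie above background in any line.

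TGFB1I1 and CSRP1 are LIM-domain proteins that tie the filaments to adhesion sites and to gene control. TGFB1I1, also called Hic-5, is a relative of paxillin that is induced by TGF-beta. It read 8.03 in UWKOS1, 8.39 in UWKOS3 and 9.03 in UWKOS7, against 9.48 in UWKOS2, 9.83 in UWKOS6 and 9.77 in UWKOS8. It fell by 1.21 on its single probe set, without overlap of the groups (SE 0.28, limma adjusted p = 0.0428). CSRP1, which binds actin-bundling proteins, read 9.94 in UWKOS1, 9.42 in UWKOS3 and 7.54 in UWKOS7, against 11.85, 11.29 and 10.84 in UWKOS2, UWKOS6 and UWKOS8. UWKOS7 was the lowest line, which held for no other gene of the set; as for ACTG2, UWKOS1 was the highest tumorigenic line. The difference of -2.36 did not pass (SE 0.63, limma adjusted p = 0.0587), and the other tested probe set gave -1.45 (limma adjusted p = 0.199).

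The tumorigenic lines were not alike. UWKOS7 was the highest tumorigenic line in 8 of the 10 genes, MYH11 among them, and UWKOS1 in the other 2, ACTG2 and CSRP1. UWKOS3 was the lowest tumorigenic line in 5 genes, UWKOS1 in 4 and UWKOS7 in CSRP1. Against the non-tumorigenic mean, UWKOS7 stood at -0.30 for TPM1, -0.31 for MYL9, -0.41 for CALD1 and 1.78 for CNN1, but at -3.29 for ACTG2 and -3.79 for CSRP1. TGFB1I1 stood at -0.66, TAGLN at -0.79 and TPM2 at -0.99 in UWKOS7. These are values of the brightest probe sets, and dimmer ones put UWKOS7 lower for some genes. On the TPM1 probe set that passed, UWKOS7 read 7.09, close to 6.80 and 6.995 in UWKOS1 and UWKOS3 and under the 8.05 to 8.74 of the non-tumorigenic lines. On the CALD1 probe sets that passed, UWKOS7 read 9.73 and 8.80, against at least 10.31 and 9.43 in the non-tumorigenic lines. Over the 6 lines, Pearson's r was 0.98 between TPM1 and CALD1 and 0.94 between ACTG2 and TPM2, while CSRP1 gave -0.03 with CNN1. These coefficients describe 6 points that share the split into groups.

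**Figure D3:**
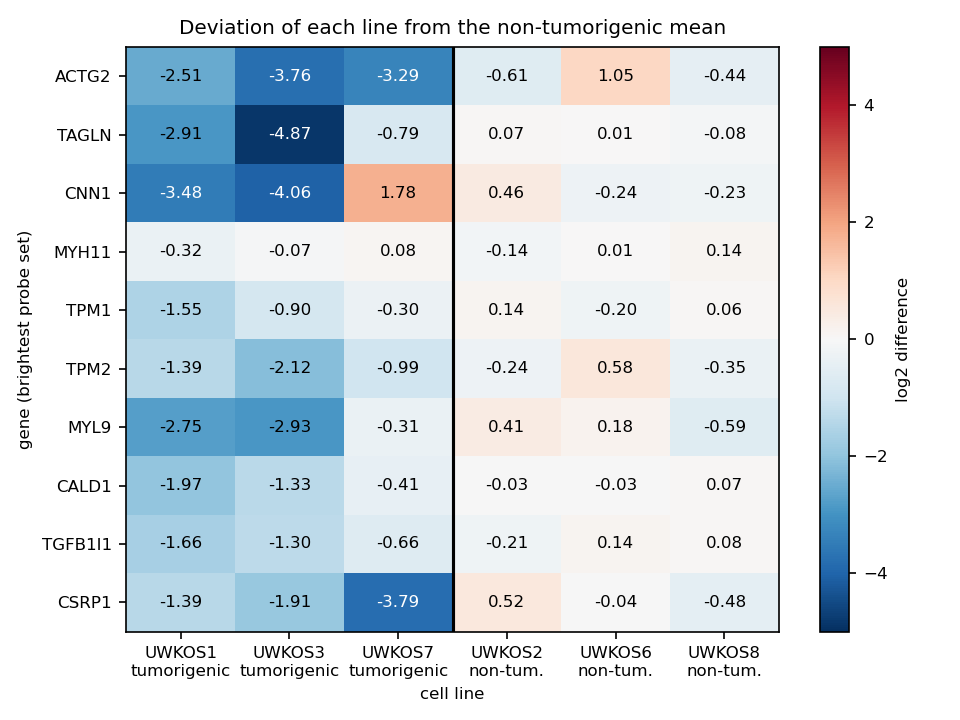
Log2 signal of each line minus the mean of the 3 non-tumorigenic lines, for each gene by its brightest probe set, with the value printed in each cell. UWKOS7 runs from -3.79 for CSRP1 and -3.29 for ACTG2 through values between -0.99 and -0.30 for 6 genes to 1.78 for CNN1, while UWKOS1 and UWKOS3 lie at -0.90 or lower for every gene except MYH11.

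Leaving out 1 line at a time showed how the calls rest on single lines. Without UWKOS7 all 9 tested genes fell, by 1.22 for TPM1 to 3.89 for TAGLN, and CNN1 fell by 3.77 (limma adjusted p = 0.0114); 5.42% of all tested genes passed as lower in that fit. Without UWKOS1 or without UWKOS2 ACTG2 alone passed, where 2.24% and 2.36% of all tested genes passed as lower. Without UWKOS3, UWKOS6 or UWKOS8 limma called 0 of the 9, where 1.53%, 0.12% and 0.656% of all tested genes were called lower. At an unadjusted limma p under 0.05, 6, 7 and 7 of the 9 were lower in turn. The share of all tested genes at an unadjusted p was not counted, here or in later paragraphs, so such counts have no background. The differences of the 9 tested genes stayed under 0 in each fit with 1 line left out. The median of the 10 genes ran from -1.85 to -1.19.

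**Figure D4:**
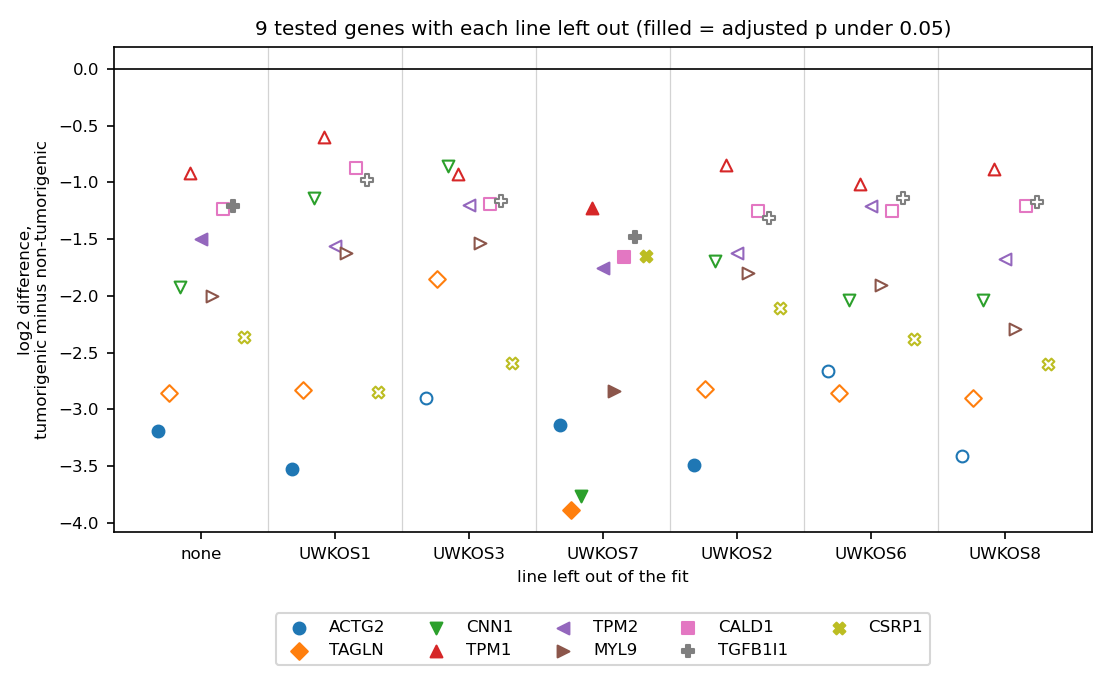
Difference in log2 signal of the 9 tested genes with all lines and with each line left out in turn, filled where the limma adjusted p was under 0.05. All points lie under 0, and the 9 genes are all filled only in the fit without UWKOS7, where TAGLN reaches -3.89 and CNN1 -3.77.

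RNA quality, as read from the 3′ to 5′ ratios of control transcripts, differed in part with the groups. The ratios were highest in UWKOS6 and UWKOS8, both non-tumorigenic. The log2 ratio of the 3′ to the 5′ GAPDH control was 0.86, 0.88 and 1.07 in UWKOS1, UWKOS3 and UWKOS7, and 0.95, 1.21 and 1.98 in UWKOS2, UWKOS6 and UWKOS8. The same ratio for actin was 0.64, 0.81 and 1.11, and 0.82, 2.86 and 2.07. UWKOS2 had ratios within the tumorigenic range. Among the non-tumorigenic lines it was the highest for TAGLN, CNN1, TPM1, MYL9 and CSRP1. UWKOS6, with the highest actin ratio, was the highest for ACTG2, TPM2 and TGFB1I1, the genes that passed. UWKOS8, with the highest GAPDH ratio, was the highest for CALD1 and MYH11 and the lowest of its group for TAGLN, TPM2, MYL9 and CSRP1. UWKOS2 was the lowest non-tumorigenic line for ACTG2 and TGFB1I1, though still above every tumorigenic line. The part of RNA quality in these differences was not tested beyond the fits that follow. With the GAPDH ratio as a covariate limma called 0 of the 9 genes, 4 of them lower at an unadjusted p under 0.05, and 0.0765% of all tested genes passed as lower; the median of the 10 genes was -1.59. Without both UWKOS6 and UWKOS8 limma also called 0, with 2 lower at an unadjusted p under 0.05, where 0.0109% of all tested genes passed as lower; the median was then -1.82, with UWKOS2 the sole line of its group and assumed to vary like the others. The filter and the weighting also moved the count: without the filter ACTG2 alone passed (2.19% of all genes passed as lower), with array weights 6 of the 9 passed (6.76%), and after centring on the hybridization controls ACTG2 and TPM2 passed (3.28%).

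The comparison with close relatives asks if the smooth muscle gene shifts more than a related gene. The relatives are mostly forms found in non-muscle cells. CSRP2 is also made in smooth muscle, so its pair with CSRP1 does not set muscle against non-muscle. ACTG1, the cytoplasmic gamma actin, read 14.19 to 14.32 in all lines and differed by -0.09, against -3.19 for ACTG2. ACTG1 lies near the top of the scale, where a change in its level could be compressed, so its small difference limits what that pair shows. TAGLN2, the transgelin of many non-muscle cells, differed by 0.41, against -2.86 for TAGLN. CNN3 differed by 0.08 and CNN2 by -1.02, against -1.92 for CNN1. TPM3 differed by 0.62 and TPM4 by -0.33, against -0.91 for TPM1 and -1.50 for TPM2. MYL12B, the non-muscle regulatory light chain, differed by -0.44, against -2.00 for MYL9. PXN, paxillin, differed by 0.34, against -1.21 for TGFB1I1.

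CSRP2, a LIM protein also made in arterial smooth muscle, had the widest gap to its relative by the brightest probe sets, at -3.71; by the mean of all probe sets that gap was -2.83, and TAGLN with TAGLN2 was wider at -3.53. CSRP2 read 11.50 in UWKOS1, 11.32 in UWKOS3 and 10.43 in UWKOS7, against 9.18 in UWKOS2, 9.96 in UWKOS6 and 10.05 in UWKOS8. CSRP2 was thus high in the lines where CSRP1 was low, and its difference of 1.35 did not pass (limma adjusted p = 0.0595). The log2 ratio of CSRP1 to CSRP2 was -1.55, -1.90 and -2.90 in UWKOS1, UWKOS3 and UWKOS7, and 2.66, 1.33 and 0.80 in UWKOS2, UWKOS6 and UWKOS8. In 6 of 12 pairs the within-line ratio did not overlap between the groups. These were CSRP1 with CSRP2, TAGLN with TAGLN2, ACTG2 with ACTG1 and with ACTB, TGFB1I1 with PXN, and TPM2 with TPM4. In each of them the smooth muscle gene alone did not overlap between the groups either. How often the ratio of other gene pairs separates the groups was not counted, so 6 of 12 has no background. With the mean of all probe sets of a gene 5 of 12 pairs did not overlap, because TPM2 with TPM4 then overlapped at -0.53 (two-sided exact permutation p = 0.3). That mean includes probe sets under the filter, such as a TPM2 probe set at 4.87 to 5.02 and a CSRP1 probe set at 5.30 to 6.01. Each of the 6 had a two-sided exact permutation p of 0.1, the smallest that 3 against 3 lines allow, and an adjusted p of 0.2 over the 12 pairs, so the design could not pass the threshold. ACTB, MYH10 and MYH11 were under the filter, so the 3 pairs that hold them say little; MYH11 with MYH9 gave 0.28.

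**Figure D5:**
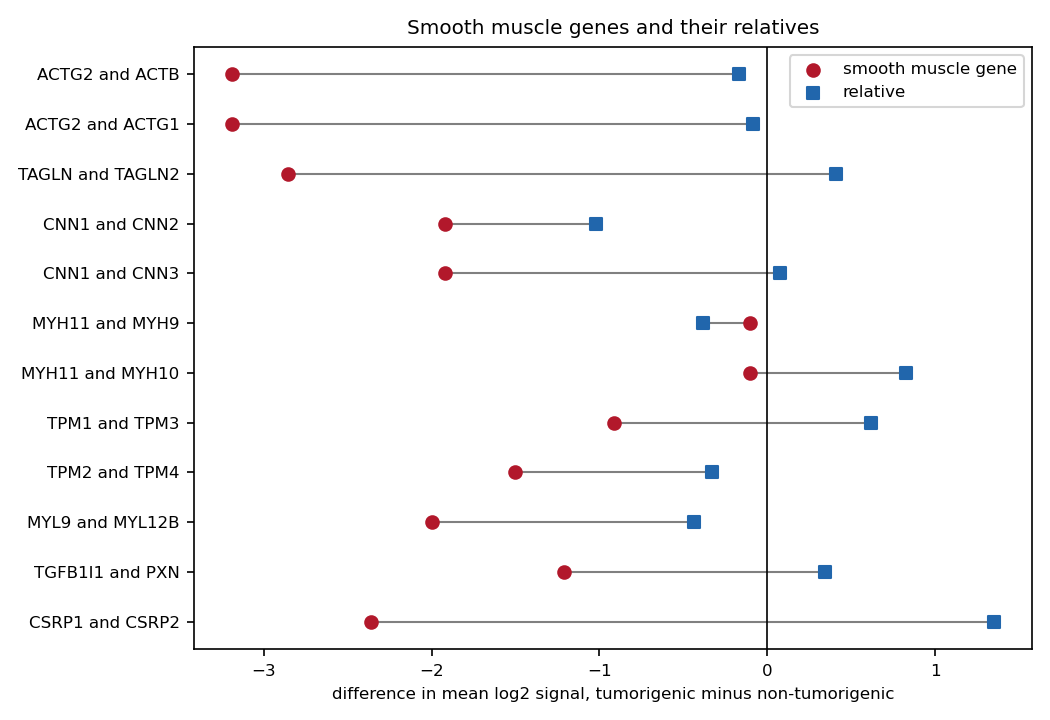
Difference in mean log2 signal for 12 pairs of a smooth muscle gene (circles) and a related gene (squares). The smooth muscle gene lies left of its relative in 11 pairs, with the longest line between CSRP1 at -2.36 and CSRP2 at 1.35, and MYH11 with MYH9 is the exception.

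Other genes of smooth muscle and myofibroblasts fell in part. Of 19 measured genes in that list, 13 were tested, 3 fell and 10 missed the threshold, where 4.52% of all tested genes fell. The median over the 19 was -0.55. CRYAB, a small heat shock protein that protects filaments, fell by 3.78 (limma adjusted p = 0.0131), NEXN, an actin-binding protein of muscle, by 3.03 and HSPB6, another small heat shock protein, by 1.07. NEXN read 6.26, 7.86 and 7.90 in UWKOS1, UWKOS3 and UWKOS7, against 10.32, 10.90 and 9.87 in UWKOS2, UWKOS6 and UWKOS8, so that UWKOS7 was as low as UWKOS3. POSTN, a matrix protein of activated fibroblasts, differed by -3.93 and did not pass; it read 9.03 in UWKOS1 but 3.08 and 3.39 in UWKOS3 and UWKOS7.

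ACTA2, the alpha actin that marks smooth muscle and myofibroblasts, was picked out after its values were seen. It read 11.44 in UWKOS1, 3.83 in UWKOS3 and 12.72 in UWKOS7, against 14.22, 14.21 and 14.30 in UWKOS2, UWKOS6 and UWKOS8. UWKOS3 was at the bottom of the scale, far under the filter, and the other tumorigenic lines were bright. The non-tumorigenic values lie near the top of the scale, where differences between lines could be compressed. The difference of -4.91 did not pass (95% interval -10.1 to 0.32, limma adjusted p = 0.177). UWKOS3 also stood alone for FHL1, a muscle LIM protein, at 6.32 against 11.57 to 13.25 in the other lines. It was by far the lowest for the mesenchymal factor PRRX1, at 6.56, and for CCN2, a TGF-beta and actin-responsive matrix protein, at 6.71. UWKOS1 and UWKOS7 read 11.18 and 11.24 for PRRX1, and 11.995 and 12.07 for CCN2. The non-tumorigenic lines were higher, at 12.47 to 12.72 and 13.25 to 13.77. The differences of -2.93 for PRRX1 and -3.31 for CCN2 did not pass (limma adjusted p = 0.1575 and 0.162). FHL1 was likewise chosen after its values were seen.

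Among 17 measured regulators of the programme, 12 were tested, 2 fell and 1 rose, against 4.52% and 7.30% of all tested genes, and the median over the 17 was -0.07. SRF, the serum response factor itself, read 7.67 to 8.80 with overlapping groups, and its coactivator MYOCD was dim, at 5.48 to 6.68, again with overlap. KLF4, which represses smooth muscle genes in vascular cells, fell by 1.61 (SE 0.31, limma adjusted p = 0.0286). KLF5, linked to the proliferating state of smooth muscle, rose by 1.57 (SE 0.33, limma adjusted p = 0.0343). It read 9.70 to 10.93 in the tumorigenic lines and 8.56 to 8.99 in the others. MEF2A, a muscle transcription factor, fell by 1.20 (limma adjusted p = 0.0354).

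Of 10 measured genes of TGF-beta input 8 were tested, and 0 passed in either direction by limma. Over all tested genes 4.52% passed as lower and 7.30% as higher, so 0 of 8 is near those shares. None of these 8 had an unadjusted limma p under 0.05, and the median over the 10 was -0.03. The ligands TGFB1, TGFB2 and TGFB3 differed by -0.31, -0.79 and 0.25, and the receptor TGFBR2 by -0.71. CCN2 had the widest difference of the list, at -3.31, and did not pass (limma adjusted p = 0.162). Of 14 measured relatives, listed as non-muscle but with CSRP2 among them, 11 were tested and limma called 0, again near those shares. In 5 of the 11 every tumorigenic line lay below every non-tumorigenic line, and in 2 above. Over all tested genes 16.6% lay below and 21.7% above in this way, so such separation was not limited to the smooth muscle genes. Of the 11, 3 were lower and 1 was higher at an unadjusted limma p under 0.05, and the median over the 14 was -0.03. The smallest p among them beside CSRP2 belonged to MYL6, the essential light chain, at -0.62 (limma adjusted p = 0.0924).

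Among 14 measured proteins of stress fibres and adhesions, 13 were tested, 2 fell and 11 missed the threshold, against 4.52% lower over all tested genes. In 6 of the 13 every tumorigenic line lay below every non-tumorigenic line, against 16.6% of all tested genes. The median over the 14 was -0.48. ZYX, zyxin, which gathers at strained stress fibres, read 8.71, 8.64 and 8.79 in UWKOS1, UWKOS3 and UWKOS7, against 9.85, 10.70 and 10.56 in UWKOS2, UWKOS6 and UWKOS8. It fell by 1.66, with UWKOS7 as low as the other tumorigenic lines (SE 0.25, limma adjusted p = 0.0199). LIMA1, which bundles actin, fell by 0.95, and the filamins FLNC and FLNA differed by -0.71 and -0.67 without passing. Of 13 measured genes of RhoA and ROCK control, 10 were tested, 1 rose and 0 fell, with a median of 0.04; 1 in 10 is near the 7.30% of all tested genes that rose. RND3, which opposes RhoA and stress fibres, rose by 0.91 (SE 0.20, limma adjusted p = 0.0358), and RHOC, LIMK2 and ARHGAP1 differed by -0.84, -0.96 and 0.46 without passing.

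Of 720 tested genes outside the set with an SD of at least 1 over the lines, those whose values followed the mean of the 10 centred genes most closely were PCBD1 (r = 0.99), THBS1 (r = 0.99), C17H1orf54 (r = 0.99), CTSF (r = 0.98) and PLAAT3 (r = 0.98), over 6 lines. PCBD1 encodes a cofactor-recycling enzyme, THBS1 a matrix protein that activates latent TGF-beta, CTSF a lysosomal protease and PLAAT3 a phospholipase. THBS1 read 12.15, 11.92 and 13.49 in UWKOS1, UWKOS3 and UWKOS7, against 14.58, 14.26 and 14.39 in UWKOS2, UWKOS6 and UWKOS8. With so few lines a high coefficient is common, and 68 of the 720 genes exceeded 0.9.

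Markers of other cells were read beside these genes. Of the 9 smooth muscle markers, ACTA2, TAGLN, CNN1 and ACTG2 were bright in the non-tumorigenic lines, from 9.93 for the lowest CNN1 to 14.45 for the highest TAGLN. SMTN read 6.83 to 7.93 and DES 6.16 to 7.33 over the 6 lines, MYOCD was close to the filter value, and MYH11 and LMOD1 lay under it. The 10 genes are named here for their known role, not for the identity of the cells. The bone matrix genes COL1A2 and SPARC were bright in all lines, at 13.17 to 14.60 and 12.41 to 13.71. For both, every tumorigenic line lay below every non-tumorigenic line, a pattern that 16.6% of all tested genes showed. Their differences of -0.93 and -0.88 did not pass (limma adjusted p = 0.0706 and 0.0761). These were 2 of 5 tested osteoblast markers. COL1A1, as bright at 12.28 to 13.51, RUNX2 and BGLAP overlapped between the groups and differed by -0.55, 0.22 and -0.44 without passing. Under the filter, ALPL, IBSP and SPP1 differed by -0.24, 0.43 and 2.26, with SPP1 at 9.76 in UWKOS1 and 2.79 to 3.30 in the other lines. The osteoblast list averaged 8.03 to 8.55 in the tumorigenic and 8.26 to 8.29 in the non-tumorigenic lines. The 8 fibroblast markers averaged 10.61, 10.28 and 9.09 in UWKOS1, UWKOS3 and UWKOS7, and 11.29 to 11.61 in the non-tumorigenic lines. Of these 8, limma called 0, where 4.52% of all tested genes passed as lower and 7.30% as higher. At an unadjusted limma p under 0.05, 4 were lower and 0 higher. In 4 of the 8 every tumorigenic line lay below every non-tumorigenic line, against 16.6% of all tested genes. PDGFRA differed by 0.78, against the direction of the average. The low average of UWKOS7 came with 4.54 for FAP and 4.34 for PDPN, while DCN at 13.80 and COL3A1 at 14.27 lay in the non-tumorigenic range. The 7 pericyte markers averaged 5.23 to 5.42 and 5.50 to 6.14, with 5 of them, RGS5 included, under the filter. Of 12 skeletal and cardiac muscle markers 9 were under the filter, MYOD1 and MYOG among them, and ACTA1 fell by 3.70 on a probe set marked as able to cross-hybridise. The averages of the other lists were 5.95 to 6.12 against 5.66 to 5.85 for endothelium, 5.97 to 6.55 against 6.93 to 7.03 for macrophages and osteoclasts, and 4.67 to 6.45 against 4.31 to 4.55 for epithelium. The macrophage and osteoclast gap came mostly from CTSK and CD68, which differed by -3.10 and -1.07 and did not pass. ACP5, CSF1R, ITGAM, PTPRC and CD14 differed by -0.18, -0.14, -0.04, 0.01 and 0.04. Of the epithelial markers KRT7 alone was tested, and it rose by 0.81 (limma adjusted p = 0.0461). Under the filter, EPCAM stood out in UWKOS1 alone, at 7.65, and KRT8 in UWKOS1 and UWKOS3, at 6.49 and 6.64. CDH1 differed by -0.12. The part of these cell types in the lower contractile genes was not tested.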

How the data were processed

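Total RNA from 6 canine lines was labelled with biotin and hybridised to 1 Affymetrix array each, from 10 µg of RNA per the labels' protocols. The authors deposited log2 values. The submitters' processing notes name MAS5 and nothing else, but the columns have nearly equal quantiles, so the summary method is not settled. Values were used as deposited: 43035 rows, 111 of them controls. Gene symbols came from the platform annotation, which can be old, updated through gene identifiers to RefSeq; 439 probe sets with several symbols named no gene. No detection calls, sequences or coordinates were used.

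Groups were compared with limma 3.58.1 in R 4.3.3 (lmFit, eBayes, no covariate) on 21462 probe sets, and pairs of genes by exact permutation with scipy 1.17.1. The fit was tested on simulated data. Figures were drawn with matplotlib 3.10.9. The members, lists and tests were chosen with earlier results of these data known. Named were all 10 genes, up to 4 genes of smallest p in each list, both genes of each pair and the 5 genes of most similar pattern. Other genes named were chosen after their values were seen. Alternatives covered the filter, scaling, variance model, probe set summary, a transcript-end covariate and lines left out. Replicate numbers follow accession order.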

Additional observations from a re-analysis of the deposited data

How the results depend on the processing

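The lower direction of the 9 tested genes held in all 18 alternatives, and the median of the 10 genes ran from -1.95 with array weights to -1.19 without UWKOS3. The calls were less stable. The count of genes called lower, 3 in the report, was 1 without the filter on dim probe sets, 6 with array weights, and 0 with the GAPDH 3′ to 5′ ratio added to the model or without both UWKOS6 and UWKOS8. It ranged from 0 to 9 with 1 line left out, 9 only without UWKOS7. The count of probe sets called over the whole table, 2580, was 3895 with array weights, 27 with the covariate, 9 without both lines, and 52 to 3169 with 1 line left out. Centring on the hybridization controls moved the median of all tested genes by 0.17 and changed the split of genes called from 413 lower and 668 higher to 300 and 1069; the median of the 10 genes was then -1.54, and ACTG2 and TPM2 passed. No paired analysis was made, because the labels match no tumorigenic line to a non-tumorigenic one. Without detection calls, a value under the filter, as for MYH11, gives no known level.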
